A study of Homo sapiens with 4 samples.

Results

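Noncoding snoRNA host genes make spliced RNAs whose introns carry small nucleolar RNAs (snoRNAs), the guides for chemical modification of ribosomal RNA. After splicing, the snoRNA is trimmed out of the intron, and the remaining exons of many hosts are read by ribosomes and removed by nonsense-mediated decay. Several of these hosts start transcription at a C within a pyrimidine tract, the layout of the 5′ terminal oligopyrimidine (TOP) genes that also encode ribosomal proteins and elongation factors and whose mRNAs are translated under control of mTORC1 and LARP1. The 10 hosts examined were GAS5, SNHG1, SNHG5, SNHG6, SNHG7, SNHG8, SNHG12, SNHG15, SNHG16 and SNHG19, chosen by symbol from 47251 genes. SNHG7, SNHG8, SNHG12, SNHG15 and SNHG19 carried their symbols in the tables, which makes 5 members. The other 5 were present by Ensembl identifier alone and are described apart.

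Polyadenylated RNA was sequenced from HCT116, an established human colon cancer cell line, in 4 libraries with 1 library per group. TTC22V1 cells had been transiently transfected with 2 µg of a pCMV-entry plasmid that encodes TTC22, and vector cells with 2 µg of the control vector. siTTC22 cells had received 3 pooled siRNAs against TTC22 at 100 nM in total, and scramble cells a scramble siRNA at the same concentration. RNA was collected 48 hours later. The unit was inferred as FPKM, which scales fragments to transcript length and library size, and no sequencing depth could be derived from them. With 1 library per group there was no replicate error and no test, so the differences hold for these libraries alone. Genes with a mean of 1 FPKM or more over a pair of libraries count as measured. A measured gene counts as higher or lower where its log2 fold, taken on the log2(FPKM + 1) scale, is 1 or more in either direction. That scale understates the change of low genes.

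TTC22 itself stood at 24215 FPKM in TTC22V1 and 4.46 FPKM in vector, and at 6.54 FPKM in siTTC22 and 10.7 FPKM in scramble, so the vector library lay below the knockdown library. TTC22 took 12.8% of the summed FPKM in TTC22V1, and over all measured genes the log2 fold had a median of −0.21 there, against −0.024 for siTTC22 over scramble. Of 8 markers of colon epithelium, 6 were at 1 FPKM or more in every library, CDX1 was at most 0.0109 FPKM and VIL1 at most 0.0154 FPKM. Of 12 markers of other cell types 10 never exceeded 1 FPKM, the exceptions being COL1A1 and CD68. CD68 stood at 5.76 FPKM in TTC22V1, 6.34 FPKM in vector, 37.2 FPKM in siTTC22 and 42.6 FPKM in scramble. The summed markers of other cell types ranged from 8.35 to 10.3 FPKM in the plasmid libraries and from 40.1 to 45.3 FPKM in the siRNA libraries. Their part in the host gene values was not tested.

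The start sites are shown first, because a pyrimidine tract at the first base is the mark by which a TOP gene is known. RefSeq promoters (GRCh38.p14) matched 8 of the 10 hosts, and SNHG6 and SNHG15 were not matched. Each window runs 5′ to 3′ on the transcribed strand, from 35 bases before the RefSeq start to the 20th base of the transcript. Capitals mark a run of at least 5 pyrimidines (C or T) that begins at the first transcribed base.
SNHG12 (chr1:28581854-28581908, minus strand): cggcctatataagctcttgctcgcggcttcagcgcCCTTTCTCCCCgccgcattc
SNHG19 (chr16:2155339-2155393, minus strand): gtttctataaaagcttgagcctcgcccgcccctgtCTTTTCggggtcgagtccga
SNHG5 (chr6:85678714-85678768, minus strand): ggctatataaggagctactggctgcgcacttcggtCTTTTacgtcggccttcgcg
SNHG7 (chr9:136728165-136728219, minus strand): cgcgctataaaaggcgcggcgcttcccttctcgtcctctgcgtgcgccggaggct
SNHG1 (chr11:62855866-62855920, minus strand): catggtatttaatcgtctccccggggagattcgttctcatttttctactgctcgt
SNHG8 (chr4:118278727-118278781, plus strand): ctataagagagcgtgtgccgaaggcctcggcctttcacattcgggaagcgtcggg
SNHG16 (chr17:76557729-76557783, plus strand): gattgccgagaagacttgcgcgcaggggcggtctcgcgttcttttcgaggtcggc
GAS5 (chr1:173869026-173869080, minus strand): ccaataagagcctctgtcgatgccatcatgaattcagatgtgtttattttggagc

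A run of at least 5 pyrimidines at the first base was present in 3 of the 8 hosts, SNHG12 (11 bases), SNHG19 (6 bases) and SNHG5 (5 bases), and each began with C. SNHG7, SNHG1 and SNHG8 also began with C, with runs of 4, 3 and 1 bases. Such a run was present in 5.22% of all 27305 promoters given by RefSeq, in 66.7% of 66 ribosomal protein promoters, and in 4 of 13 promoters of other noncoding snoRNA hosts. Within 20 bases either side of the start, 7 of the 8 hosts held a run of at least 5 pyrimidines, against 61.8% of all promoters, so the looser rule says little about the hosts. The letters TATA, searched on the transcribed strand between 40 and 21 bases before the start, were found in SNHG5, SNHG7, SNHG8, SNHG12 and SNHG19. That is 5 of 8 hosts, against 6.20% of all promoters, 16.7% of ribosomal protein promoters and 1 of 13 promoters of other noncoding snoRNA hosts. The start was taken as RefSeq gives it. In GAS5 it lies 163 bases before the GENCODE start of the gene, and in SNHG12 it lies 1259 bases after it. It also lies after the GENCODE start in SNHG5 (199 bases), SNHG1 (68), SNHG8 (59), SNHG19 (47) and SNHG16 (37). Only in SNHG7 do both sources give the same start. At the annotated first base a TOP-like tract was thus not found in SNHG7, SNHG1, SNHG8, SNHG16 or GAS5 under this start and this minimum length. The same rule was passed by only 66.7% of ribosomal protein promoters, and the start differs between sources in 4 of these 5. It therefore cannot decide whether the TOP-like name holds for them.

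SNHG8 was the most abundant of the 5 named hosts in every library. SNHG8 (ENSG00000269893, chromosome 4, 118278703 to 118285316, plus strand, up to 4 exons), which hosts SNORA24, stood at 28.5 FPKM in TTC22V1, 36.9 FPKM in vector, 46.2 FPKM in siTTC22 and 43.1 FPKM in scramble. Both siRNA libraries lay above both plasmid libraries, although the tables of the siRNA and plasmid libraries were normalised separately. SNHG19 (ENSG00000260260, chromosome 16, 2154792 to 2155405, minus strand, up to 2 exons), which hosts SNORD60, stood at 15.7 FPKM in TTC22V1, was listed at 0 in vector, and stood at 25.9 FPKM in siTTC22 and 23.9 FPKM in scramble. It ranked second of the 5 in every library but vector. SNHG7 (ENSG00000233016, chromosome 9, 136721366 to 136728184, minus strand, up to 6 exons), a host of SNORA17A and SNORA17B, stood at 12.9 FPKM in TTC22V1, 16.9 FPKM in vector, 10.3 FPKM in siTTC22 and 7.76 FPKM in scramble. Here both plasmid libraries lay above both siRNA libraries, the reverse of SNHG8.

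SNHG15 (ENSG00000232956, chromosome 7, 44983019 to 44986961, minus strand, up to 5 exons), the host of SNORA9, stood at 4.29 FPKM in TTC22V1, 8.14 FPKM in vector, 7.93 FPKM in siTTC22 and 5.76 FPKM in scramble. The TTC22V1 library was the lowest for it. SNHG12 (ENSG00000197989, chromosome 1, 28578538 to 28583132, minus strand, up to 6 exons), which hosts SNORA16A, SNORA44, SNORA61 and SNORD99, stood at 2.51 FPKM in TTC22V1, 6.72 FPKM in vector, 2.82 FPKM in siTTC22 and 2.70 FPKM in scramble. The vector library stood alone above the other three, which lay close together. From high to low the order was SNHG8, SNHG19, SNHG7, SNHG15 and SNHG12 in the other libraries, and SNHG8, SNHG7, SNHG15, SNHG12 and SNHG19 in vector. The positions are from GENCODE 44 on hg38, the build named in the submitters' processing notes.

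**Figure D1:**
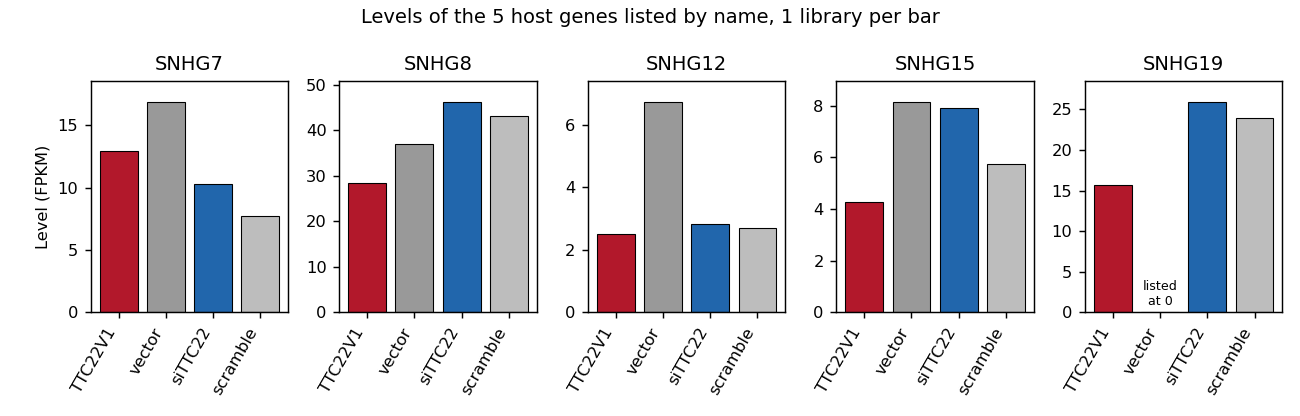
Level in FPKM (linear axis from 0, one scale per gene) of the 5 named host genes, with 1 bar per library for TTC22V1, vector, siTTC22 and scramble. SNHG12 lies between 2.51 and 2.82 FPKM in TTC22V1, siTTC22 and scramble, against 6.72 FPKM in vector, and SNHG19 is listed at 0 in vector.

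The plasmid comparison asked how the hosts differ when TTC22V1 is overexpressed. Of the 5 measured hosts, SNHG12 was lower and SNHG19 was counted as higher because its vector value was 0, against 4.1% of all 10191 measured genes that were lower and 2.08% that were higher. SNHG12 in TTC22V1 was at 0.373 of its vector level, a log2 fold of −1.14, and 3.12% of measured genes had a lower fold. Relative to the median of all measured genes its fold was −0.93, so it no longer passed the rule. Centring on ribosomal protein genes (−0.90) and rescaling the libraries to equal sums without TTC22 (−0.96) also left it short of the rule. Set against the scramble library in place of vector, a comparison across tables that were normalised separately, SNHG12 in TTC22V1 had a log2 fold of −0.076. It was thus called lower against vector and not against scramble.

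No fold is given for SNHG19, since its reference value was an exact 0 and the tables hold no counts. It was the only one of 2052 genes at 10 FPKM or more in the other three libraries that was listed at 0 in vector. The same pattern held for 2 genes in TTC22V1, 0 in siTTC22 and 3 in scramble, and each of these genes had under 4 exons. Whether the 0 reflects the RNA or the quantification was not tested.

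SNHG15 had the next largest fold at −0.79 in TTC22V1 over vector, which is −0.58 relative to all measured genes, and 6.10% of genes had a lower one. SNHG7 and SNHG8 both had a log2 fold of −0.36. Relative to the all-gene median these were −0.15 and −0.16, and 29.0% and 28.8% of genes had a lower fold. All 4 hosts with a value in both libraries thus stood lower in TTC22V1 than in vector, as did 75.4% of all measured genes. The median log2 fold of the 5 hosts was −0.36, against −0.21 for all measured genes. SNHG19 enters that median as the highest value, although its fold over 0 is not meaningful. Without SNHG19 the median of the remaining 4 was −0.58. Summed over these 4, host RNA amounted to 48.2 FPKM in TTC22V1 and 68.7 FPKM in vector.

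**Figure D2:**
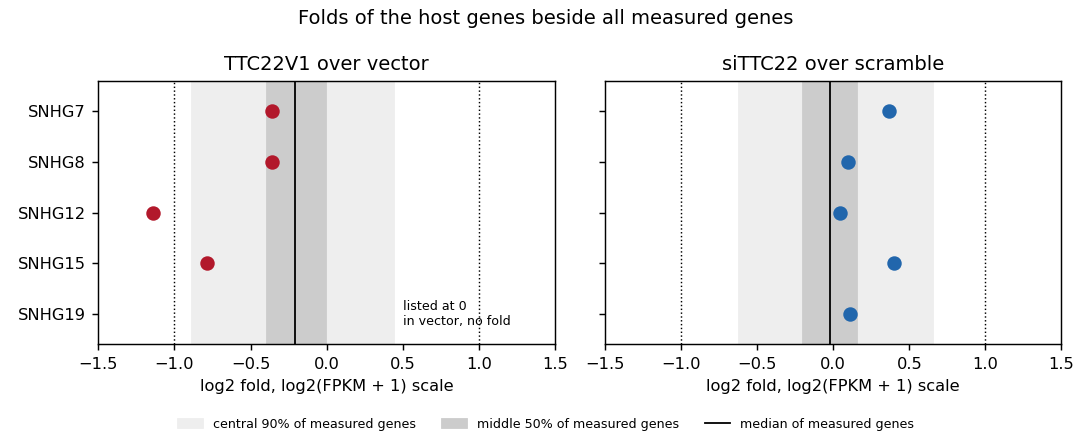
Log2 fold on the log2(FPKM + 1) scale of each named host, TTC22V1 over vector on the left and siTTC22 over scramble on the right, over the central 90% (light band), middle 50% (dark band) and median (line) of all measured genes, with dotted lines at a 2-fold change. SNHG12 at −1.14 is the only host left of the lower dotted line, and all 5 hosts lie to the right of the median line in the siRNA comparison.

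The siRNA comparison asked how the hosts differ when TTC22 is lowered. None of the 5 measured hosts passed the size rule in either direction, against 2.57% of 9744 measured genes that were higher and 2.19% that were lower. SNHG15 stood at 1.38 times its scramble level in siTTC22, a log2 fold of 0.40, and 9.88% of measured genes had a higher fold. SNHG7 stood at 1.33 times, a log2 fold of 0.37, with 11.1% of genes higher.

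SNHG19 (log2 fold 0.11), SNHG8 (0.097) and SNHG12 (0.047) lay closer to the all-gene median of −0.024. All 5 folds were above 0 in siTTC22, as were 45.8% of all measured genes, and their median was 0.11. With the libraries rescaled to equal sums without TTC22, SNHG19 (−0.065), SNHG8 (−0.083) and SNHG12 (−0.087) lay below 0 and the median was −0.065. SNHG7 and SNHG15 stayed above 0 at 0.20 and 0.24. Summed over the 4 hosts without a 0 in any library, host RNA was 67.2 FPKM in siTTC22 and 59.3 FPKM in scramble.

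The 2 control libraries also differed from each other. For scramble over vector the log2 fold was −1.06 for SNHG12, −1.03 for SNHG7, −0.44 for SNHG15 and 0.22 for SNHG8. The median was −0.25 over all measured genes and 0.34 over ribosomal protein genes, so SNHG8 lay between these medians. SNHG12 thus differed between the controls by nearly as much as between TTC22V1 and vector, and SNHG7 had a larger gap between the controls than in either experiment. With vector in place of scramble, siTTC22 had a log2 fold of −1.02 for SNHG12, −0.66 for SNHG7, −0.034 for SNHG15 and 0.31 for SNHG8. SNHG7 in TTC22V1 had a log2 fold of 0.67 over scramble. The controls came from separate experiments and tables, so plasmid against siRNA transfection and library cannot be told apart.

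Exons of SNHG7 and SNHG8 overlap protein-coding genes on the opposite strand, and the sources used here do not say whether strand was used in counting. DIPK1B covers 30.3% of the exonic bases of SNHG7 and stood at 1.93 FPKM in TTC22V1, 2.54 FPKM in vector, 0.896 FPKM in siTTC22 and 0.848 FPKM in scramble. Like SNHG7, it was highest in vector and higher in both plasmid libraries than in both siRNA libraries. PRSS12 covers 37.6% of those of SNHG8 and stood at 4.12 FPKM in TTC22V1, 4.69 FPKM in vector, 1.96 FPKM in siTTC22 and 3.50 FPKM in scramble, unlike SNHG8, which was higher in the siRNA libraries. The shared bases between SNHG12 and TRNAU1AP numbered 8. Of the hosts found by identifier alone, SNHG6 shares 58.9% of its exonic bases with MCMDC2 on the opposite strand, and SNHG16 28.5% with a gene that has no symbol. How far shared reads enter the host values was not tested.

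GAS5, SNHG1, SNHG5, SNHG6 and SNHG16 were found through their Ensembl identifiers, and each had a value below 1 FPKM in every library. GAS5 (ENSG00000234741, chromosome 1, 173858559 to 173868882), the host of a series of box C/D snoRNAs and a known target of nonsense-mediated decay, stood at 0.0726 FPKM in TTC22V1, 0.751 FPKM in vector, 0.929 FPKM in siTTC22 and 0.439 FPKM in scramble. SNHG1 (ENSG00000255717, chromosome 11, 62851978 to 62855953), the host of SNORD22 and SNORD25 to SNORD31, stood at 0.125 FPKM in TTC22V1, 0.376 FPKM in vector, 0.401 FPKM in siTTC22 and 0.303 FPKM in scramble. TTC22V1 was the lowest library for both GAS5 and SNHG1.

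SNHG6 (ENSG00000245910, chromosome 8, 66920561 to 66926398), the host of SNORD87, stood at 0.569 FPKM in TTC22V1, 0.661 FPKM in vector, 0.712 FPKM in siTTC22 and 0.847 FPKM in scramble. SNHG16 (ENSG00000163597, chromosome 17, 76557727 to 76670985), the host of SNORD1A, SNORD1B and SNORD1C, stood at 0.102 FPKM in TTC22V1, 0.0506 FPKM in vector, 0.183 FPKM in siTTC22 and 0.0767 FPKM in scramble. SNHG5 (ENSG00000203875, chromosome 6, 85650491 to 85678932), the host of SNORD50A and SNORD50B, stood at 0.0175 FPKM in TTC22V1, 0.0168 FPKM in vector, 0.0674 FPKM in siTTC22 and 0.0421 FPKM in scramble. Both were highest in siTTC22. No fold or call is given for these 5, which all fell short of a mean of 1 FPKM.

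These low values belong to rows of a different form. All 527 rows without a gene name and above 0 in a library were written with at most 6 decimals, as were all 308 of them with several annotated transcripts. Of the named rows with several annotated transcripts, 7.78% of 18594 were. Among lncRNA rows with several annotated transcripts, this form was found in all 284 without a name and in 26.1% of 2811 with a name. SNHG7, SNHG8, SNHG12 and SNHG15 had 13 or 14 decimals, and SNHG19, with 2 annotated transcripts, had at most 6. Among 450 lncRNA rows without a name the highest value was 2.13 FPKM and 4 reached 1 FPKM in any library, against 191.8 FPKM and 375 of 13623 for lncRNA rows with a name. How the rows without a name were computed is not given in the sources used here, so the levels of GAS5, SNHG1, SNHG5, SNHG6 and SNHG16 are not ranked against those of the other 5. The part of this difference in form in their low values was not tested.

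**Figure D3:**
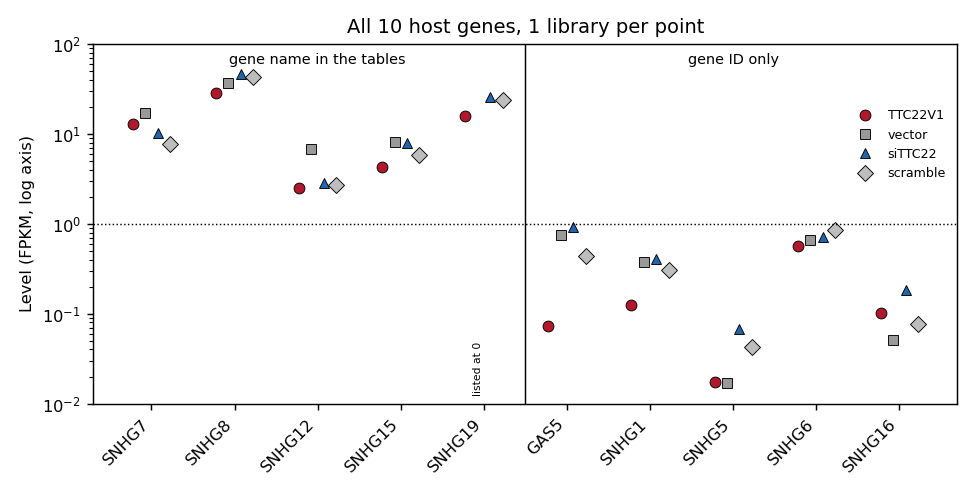
Level in FPKM (log axis) of all 10 host genes, with 1 point per library and the dotted line at 1 FPKM. The 5 hosts with a gene name lie between 2.51 and 46.2 FPKM apart from the SNHG19 value listed at 0, and the 5 found by identifier alone lie between 0.0168 and 0.929 FPKM.

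Most snoRNA rows were listed at 0 in these poly(A)-selected libraries. A search of GENCODE 44 by position, inside all 10 hosts on the same strand, found 25 snoRNA entries, some of them duplicates of a locus. No entry was found inside GAS5, and SNORD29, SNORD31 and SNORD50A were also missing from those found. All 25 entries were in the tables. The only one above 0 was SNORD99, inside SNHG12, at 0.199 FPKM in siTTC22 and 0.0851 FPKM in scramble, and listed at 0 in both plasmid libraries. Of all 938 snoRNA rows, 89 were above 0 in a library and 13 reached 1 FPKM. Whether these zeros reflect the RNA or the quantification was not tested, so nothing is said here of the level of the mature snoRNAs.

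Related genes of the pathway were counted by the same rule. Over all measured genes, 4.1% were lower and 2.08% higher in TTC22V1, and 2.19% were lower and 2.57% higher in siTTC22. The list of other noncoding snoRNA hosts held 18 symbols, of which only 9 were found by name, so its medians cover a part of the class. Of 5 measured there, SNHG9 was lower in TTC22V1 (0.679 FPKM in TTC22V1 and 2.47 FPKM in vector, log2 fold −1.05) and none was higher. Its fold relative to all genes was −0.84, which does not pass the rule. All 5 stood below 0, as did 75.4% of all measured genes. Their median was −0.54, on the same side of the all-gene median as that of the hosts described above. ZFAS1 was the 1 of 5 above the all-gene median, at 0.097 relative to it. In siTTC22 none of 4 passed the rule, and their median was 0.16. ZFAS1, the antisense host of SNORD12, had the largest fold there at 121.4 FPKM in siTTC22 and 92.1 FPKM in scramble (0.40), and C6orf48, now named SNHG32, stood at 59.0 FPKM in siTTC22 and 63.3 FPKM in scramble.

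Protein-coding genes of the TOP class had plasmid medians above that of the noncoding hosts. Of 81 measured cytosolic ribosomal protein genes and close paralogs, 1 was higher (RPL29) and 1 lower (RPS15) in TTC22V1, with a median log2 fold of −0.24. Of 80 in siTTC22, none was higher and RPL29 was lower, with a median of 0.064. RPL29 stood at 400.7 FPKM in TTC22V1, 159.0 FPKM in vector, 280.9 FPKM in siTTC22 and 638.8 FPKM in scramble. Ribosomal protein genes have many processed pseudogenes, which makes single values uncertain.

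Of 21 other TOP mRNAs none passed in TTC22V1 (median 0.0015), with EIF3E, a subunit of initiation factor eIF3, furthest out at 109.8 FPKM in TTC22V1 and 68.3 FPKM in vector (0.68). None of 20 passed in siTTC22 (median 0.034), where the nuclear import receptor IPO7 had the largest fold (0.50). Of 37 protein-coding snoRNA hosts, EIF4A1, the helicase of the cap-binding complex, was lower in TTC22V1 at 32.7 FPKM, against 173.1 FPKM in vector (−2.37), and none was higher. It stood at 98.8 FPKM in siTTC22 and 89.7 FPKM in scramble. The median of that list was −0.20 in TTC22V1 and 0.063 in siTTC22, where none passed and TAF1D, a subunit of the RNA polymerase I factor SL1, had the largest fold (0.80). Of these 37 genes 27 also stand in another of the 8 lists.

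**Figure D4:**
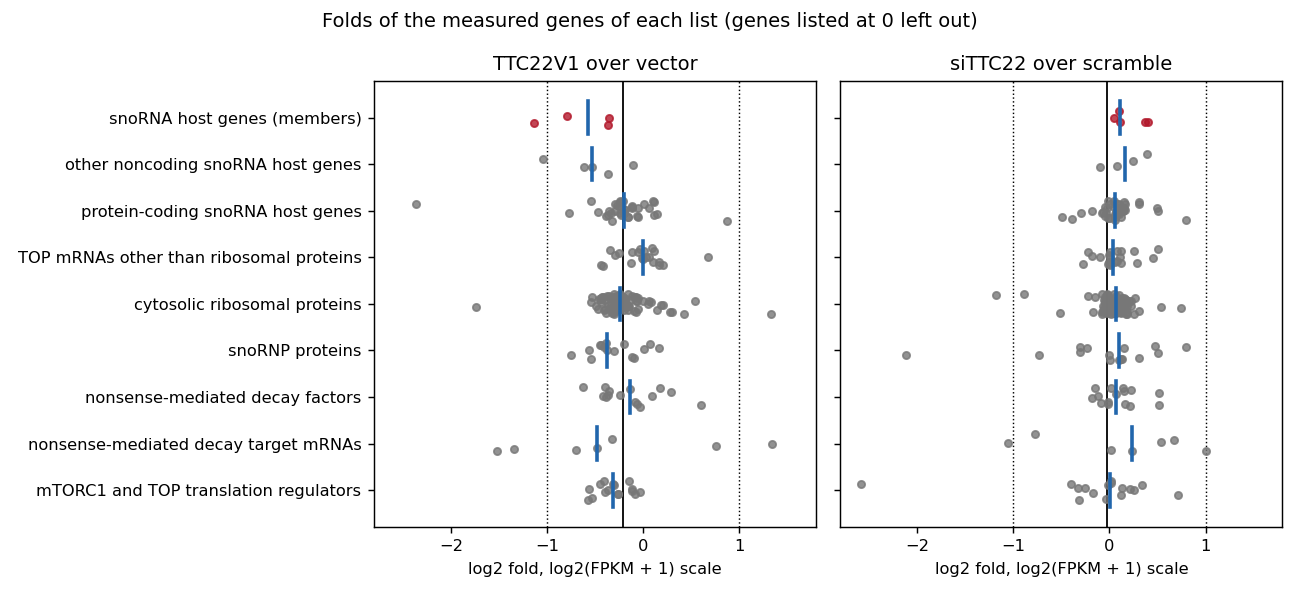
Log2 fold on the log2(FPKM + 1) scale of the measured genes of each list, TTC22V1 over vector on the left and siTTC22 over scramble on the right, with the list median (short line), the median of all measured genes (long line) and dotted lines at a 2-fold change. The host genes without a 0 have a median of −0.58 in the plasmid comparison, against −0.24 for ribosomal protein genes and −0.21 for all genes.

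The list for proteins that bind and mature snoRNAs held 15 measured genes. It also contains TAF1D, the SL1 subunit and snoRNA host named above, with a log2 fold of 0.80 in siTTC22. None of the 15 genes passed the rule in TTC22V1, where their median was −0.37. NHP2, a core protein of box H/ACA particles, had the largest fold there at 49.2 FPKM in TTC22V1 and 83.7 FPKM in vector (−0.75). In siTTC22 the median was 0.096 and NOP10, another H/ACA core protein with up to 3 exons, was lower at 31.2 FPKM, against 138.0 FPKM in scramble (−2.11). FBL, the methyltransferase of box C/D particles, stood at 106.8 FPKM in TTC22V1, 132.1 FPKM in vector, 83.4 FPKM in siTTC22 and 77.9 FPKM in scramble. None of the 15 genes was higher in either comparison.

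No factor of nonsense-mediated decay, of 15 measured, passed the rule in TTC22V1 (median −0.14) or in siTTC22 (median 0.073). UPF1, the central helicase of the pathway, stood at 12.3 FPKM in TTC22V1 and 19.5 FPKM in vector (−0.62), and UPF3B at 2.84 FPKM in siTTC22 and 1.68 FPKM in scramble (0.52). Of 7 mRNAs known as decay targets, 2 were lower (ATF4 and GADD45B) and 1 higher (GABARAPL1) in TTC22V1, against 4.1% and 2.08% of all measured genes. In siTTC22, 1 was higher (UPP1) and 1 lower (GABARAPL1), against 2.57% and 2.19%. GADD45B, a stress-induced growth arrest gene, stood at 10.6 FPKM in TTC22V1 and 28.6 FPKM in vector (−1.35). GABARAPL1, an autophagy gene, stood at 11.7 FPKM in TTC22V1, 4.02 FPKM in vector, 9.24 FPKM in siTTC22 and 20.3 FPKM in scramble. The medians of these targets were −0.48 in TTC22V1 and 0.24 in siTTC22, with members on both sides.

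Of 16 regulators of mTORC1 and of TOP translation, none passed in TTC22V1. All 16 stood below 0, as did 75.4% of all measured genes, and 11 of the 16 lay below the all-gene median. Their median was −0.31, or −0.10 relative to all genes. RPS6KB2, an S6 kinase, had the largest fold there (−0.57). LARP1, which binds the 5′ end of TOP mRNAs, stood at 14.4 FPKM in TTC22V1, 18.1 FPKM in vector, 12.8 FPKM in siTTC22 and 12.7 FPKM in scramble. In siTTC22 the translation repressor gene EIF4EBP2, with up to 3 exons, was lower at 0.341 FPKM, against 7.02 FPKM in scramble (−2.58), and the median was 0.0025.

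The profile of the hosts over the 4 libraries was then compared with other genes. The median profile of SNHG7, SNHG8, SNHG12 and SNHG15, as log2(FPKM + 1) minus each gene's mean over the libraries, was −0.37 in TTC22V1, 0.41 in vector, 0.061 in siTTC22 and −0.19 in scramble. By Euclidean distance over the 4 values, the nearest of 1298 eligible genes were ATXN2L (0.11), TMUB1 (0.17), SF1 (0.20), AUP1 (0.20) and PAF1 (0.21). These 5 were picked for their small distance and had to reach a mean of 20 FPKM, which SNHG7, SNHG12 and SNHG15 do not. The distances of the 4 hosts from their own median were 0.27 for SNHG15, 0.48 for SNHG12, 0.62 for SNHG8 and 0.66 for SNHG7. In TTC22V1 SNHG7 stood at 0.15, against −0.40 for SNHG8, −0.33 for SNHG12 and −0.47 for SNHG15. Profiles and distances span tables that were normalised separately and are given as a description.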

How the data were processed

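Paired-end libraries of polyadenylated RNA from 4 HCT116 samples were sequenced, per the labels' protocols. STAR and hg38 are named in the submitters' processing notes; for the quantifier, its annotation and its strand setting nothing is stated there. Deposited columns hold values taken to be FPKM as made by the authors, since the columns are not whole and sum to between 181102 and 205734. Depth is unknown: between 158 and 185 genes per library have values so low that they would equal less than 1 fragment even in a library of 1000000000 fragments, so whole reads could not be recovered and no counting interval is given.

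Members were matched by gene name and otherwise by Ensembl identifier through the supplied name table. Log2 folds used a pseudocount of 1 FPKM. Counts, medians and distances were computed with Python 3.11.15, pandas 2.3.3 and numpy 2.4.6. Annotation was GENCODE 44, and promoters were from RefSeq. Named list genes are up to 4 per direction with the largest folds past the rule, or the largest fold where none passed. The nearest genes needed a mean of at least 20 FPKM, no 0 and no place in a list. Members and lists were chosen with earlier results of these data known. Alternatives were another pseudocount, 3 scalings, 2 filters, 2 sizes, the mean, leaving out zeros, and a wider promoter search. The use of the other control library and of all 10 identifiers was added after the data had been seen.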

Additional observations from a re-analysis of the deposited data

How the results depend on the processing

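With 1 library per group no result has a replicate error, and no library could be left out. No paired analysis was possible because each group holds 1 library. The plasmid count of lower hosts, 1, became 0 with centring on all genes or on ribosomal protein genes, rescaling without TTC22, a mean of at least 5 FPKM, a 4-fold size or scramble in place of vector, and 2 with a 1.5-fold size. The count of higher hosts, 1, became 0 without members listed at 0 or with scramble as control. The plasmid median of −0.36 turned to 0.28 as a mean, which includes the SNHG19 value over 0. The siRNA median of 0.11 turned to −0.065 with rescaling and to −0.034 with vector as control, where 1 host was higher and 1 lower. Of 36 folds of single hosts under 4 other settings (pseudocount and scalings), 29 kept sign and side of the rule. SNHG12 left the rule in 3, and 4 turned in siTTC22: SNHG12 with ribosomal centring (−0.017) or rescaling (−0.087), SNHG8 (−0.083) and SNHG19 (−0.065). With the other control, SNHG7 turned to 0.67 in TTC22V1 and to −0.66 in siTTC22, where SNHG12 (−1.02) and SNHG15 (−0.034) also turned. The promoter count of 3 of 8 became 7 within 20 bases. The cause of these shifts was not tested.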
